A study of Mus musculus with 12 samples.

Results

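The 10 regulators of the growing hair follicle, Shh, Ptch1, Gli1, Bmp2, Bmp4, Hoxc13, Foxn1, Msx2, Dlx3 and Gata3, were read by gene name from the deposited table of mouse dorsal skin, which lists 36400 genes. The 10 genes had 1 row each, and all 10 passed the filter on low values, which kept genes that averaged 0.1 FPKM or more. FPKM is the level of a gene scaled by gene length and by the depth of the library, so its values can be set side by side between genes. The genes were chosen for their known roles, with earlier results of these data known.

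The 12 libraries came from female BALB/c mice, bought at 6 weeks of age, with 3 mice in each of 4 groups. All mice had the back shaved and treated with hair removal cream before the experiment, were shaved again on day 24 and gave dorsal skin on day 30. In the control group the skin was treated with vehicle, acetone mixed with olive oil. DNCB mice were sensitized with 1% and then repeatedly challenged with 0.5% 1-chloro-2,4-dinitrobenzene (DNCB), a contact sensitizer that gives dermatitis resembling atopic dermatitis. The scMSC mice received the same DNCB schedule and 4 injections, from day 13 to day 25, of 2000000 human umbilical cord mesenchymal stem cells (MSCs) in 100 µL under the skin of the back. The scivMSC mice received DNCB and the same number of MSCs at each injection, with 50 µL given subcutaneously and the other 50 µL through the tail vein. The MSCs were human cells in immunocompetent mice, and none of the 4 groups received the culture solution without cells or MSCs without DNCB. How many injected cells were still present at day 30 was not measured in these files. Skin was sequenced as whole tissue, so that fewer cells of a type and less RNA per cell cannot be told apart.

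A hair follicle cycles between rest (telogen), growth (anagen) and regression. In anagen, matrix cells at the base of the follicle, next to the mesenchymal cells of the dermal papilla, divide and then differentiate into the hair shaft and the inner root sheath that surrounds it. Sonic hedgehog from the matrix drives growth of the epithelium and of the papilla, and bone morphogenetic proteins (BMPs) hold resting follicles at rest but are needed in the growing bulb for shaft differentiation, where transcription factors such as HOXC13, FOXN1, MSX2 and DLX3 act on shaft keratin genes.

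Promoter sequences were in the RefSeq table used here for 5 of the 10 genes, Ptch1, Bmp4, Foxn1, Msx2 and Gata3. The 250 bases before the RefSeq start are shown for Ptch1, Bmp4 and Foxn1, which represent the receptor, the BMP ligand and the transcription factor of this group and whose windows overlapped no annotated exon. The Ptch1 window lies inside the longer gene given in the deposited table, so that its RefSeq start is an internal one there. The Gata3 and Msx2 windows, not shown, also lie inside the bounds of their genes. They overlap annotated exons of Gm13256 and of Msx2. Each is written 5′ to 3′ on the gene's own strand, which is the minus strand of GRCm38.p6 in the 3 cases, and capitals mark the motif matches given after the sequences. The windows are chr13:63565736-63565985 for Ptch1, chr14:46390670-46390919 for Bmp4 and chr11:78386609-78386858 for Foxn1.
Ptch1: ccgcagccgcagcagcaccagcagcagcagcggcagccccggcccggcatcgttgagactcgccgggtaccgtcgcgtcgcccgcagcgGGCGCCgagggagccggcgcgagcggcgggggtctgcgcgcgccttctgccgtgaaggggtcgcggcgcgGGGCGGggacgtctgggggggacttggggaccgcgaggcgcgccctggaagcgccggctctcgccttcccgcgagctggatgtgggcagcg
Bmp4: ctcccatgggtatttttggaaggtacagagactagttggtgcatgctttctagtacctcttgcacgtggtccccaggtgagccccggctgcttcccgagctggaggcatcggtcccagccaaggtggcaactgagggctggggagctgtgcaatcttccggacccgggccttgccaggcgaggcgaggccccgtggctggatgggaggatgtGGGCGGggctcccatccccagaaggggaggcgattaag
Foxn1: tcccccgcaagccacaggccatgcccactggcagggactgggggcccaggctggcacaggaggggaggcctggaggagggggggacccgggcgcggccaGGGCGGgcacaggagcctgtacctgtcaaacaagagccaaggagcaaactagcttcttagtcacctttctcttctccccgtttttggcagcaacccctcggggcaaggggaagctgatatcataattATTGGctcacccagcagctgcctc
Capitals in the Ptch1 window mark GGCGCC, a GC-rich SMAD motif, 161 bases before the start, and GGGCGG, the motif of SP and KLF factors, 91 bases before it. The Bmp4 window held GGGCGG 38 bases before the start, and the Foxn1 window held it 151 bases before. ATTGG in the Foxn1 window, 24 bases before the start, is the reverse complement of the CCAAT motif.

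Both strands of the 5 windows were searched for 8 motifs, and the share of the 32851 promoters of the RefSeq table with a match in the same 250 bases was counted. GGGCGG was in 5 of the 5 windows and in 32.7% of all promoters, GGCGCC was in 2 (Ptch1 and Gata3) and in 9.59% of all, and CCAAT was in 2 (Foxn1 and Msx2) and in 33.8% of all. The GLI motif TGGGTGGTC (0.225% of all promoters), the LEF and TCF motif ATCAAAG (3.21%), the CAATTA form of the DLX and MSX motif (7.17%), the GATA motif AGATAA (9.99%) and TATAAA (12.4%) had no match in the 5 windows. The form TAATTA was not part of the search. Its letters are present in the Foxn1 and Msx2 windows, so a DLX and MSX site is not shown to be absent there. The windows were rich in G and C, at 61.6% for Msx2, 63.2% for Bmp4 and for Foxn1, 70.0% for Gata3 and 78.4% for Ptch1, against a median of 52.4% over all promoters. GGGCGG and GGCGCC are themselves made of G and C. A match describes these letters, and the files hold no measurement of binding to them.

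The total of estimated counts, which the authors deposited beside FPKM, ran from 63877153 to 75134001 per library. The smallest count of any of the 10 genes in any library was 72, for Shh in control replicate 3. Epidermal keratins Krt5 and Krt14 were present in every library. The libraries control 2, control 3, scivMSC 2 and scivMSC 3 each stood apart from the others of their group in a summed list. Control replicate 2 had a summed level of 9 inner root sheath genes of 343 FPKM, against 20.2 and 21.6 FPKM in the other control libraries. In control replicate 3, the sum of 8 macrophage and monocyte genes was 385.5 FPKM, against 99.15 and 109.2. In scivMSC replicate 2, the sum of 6 stress keratinocyte genes was 4746 FPKM, against 1238 and 1231. In scivMSC replicate 3, the sum of 6 fibroblast genes was 124 FPKM, against 699 and 946. Results below are given without control replicate 2 where they rest on it.

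Counts were compared in edgeR's quasi-likelihood test, fitted to 21890 genes with the 4 groups in 1 model, and every adjusted p below is the Benjamini-Hochberg value of that test over those genes unless another tool is named. A gene was called, and is said to have risen or fallen, at an adjusted p under 0.05 and a log2 fold change beyond 1 in either direction. Fold changes stand on the log2 scale ± the standard error of the fit. With 3 libraries against 3, the smallest p of an exact permutation test of 1 gene, two-sided, would be 0.1. The comparisons are not independent, because the same DNCB libraries enter 3 of them and the same control libraries enter 3.

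Across the 10 genes, DNCB skin was set apart from control skin by lower Bmp2, Bmp4 and Gata3, and MSC-treated skin from DNCB skin by higher Hoxc13, Msx2, Dlx3, Bmp2 and Gata3 under both injection routes. In DNCB against control, 3 of the 10 genes were called, each lower, where 14.2% of all genes tested were called (6.59% higher and 7.57% lower). In scMSC against DNCB, 8 were called, each higher, beside 8.50% of all genes (4.66% higher), and in scivMSC against DNCB 5 were called, each higher, beside 5.46% (3.13% higher). The 10 genes had higher FPKM in each scMSC library than in each DNCB library, where 33.1% of all genes tested did not overlap between these groups in either direction. The same held for scivMSC against DNCB, where 32.7% of all genes did not overlap. Their median log2 fold change was -0.25 in DNCB against control, 1.93 in scMSC against DNCB and 1.54 in scivMSC against DNCB, beside medians of 0.022, 0.016 and 0.023 over all genes tested. A test of any difference among the 4 groups gave an adjusted p under 0.05 for 8 of the 10 genes, all but Shh (0.161) and Gli1 (0.116), where 27.8% of all genes passed.

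**Figure D1:**
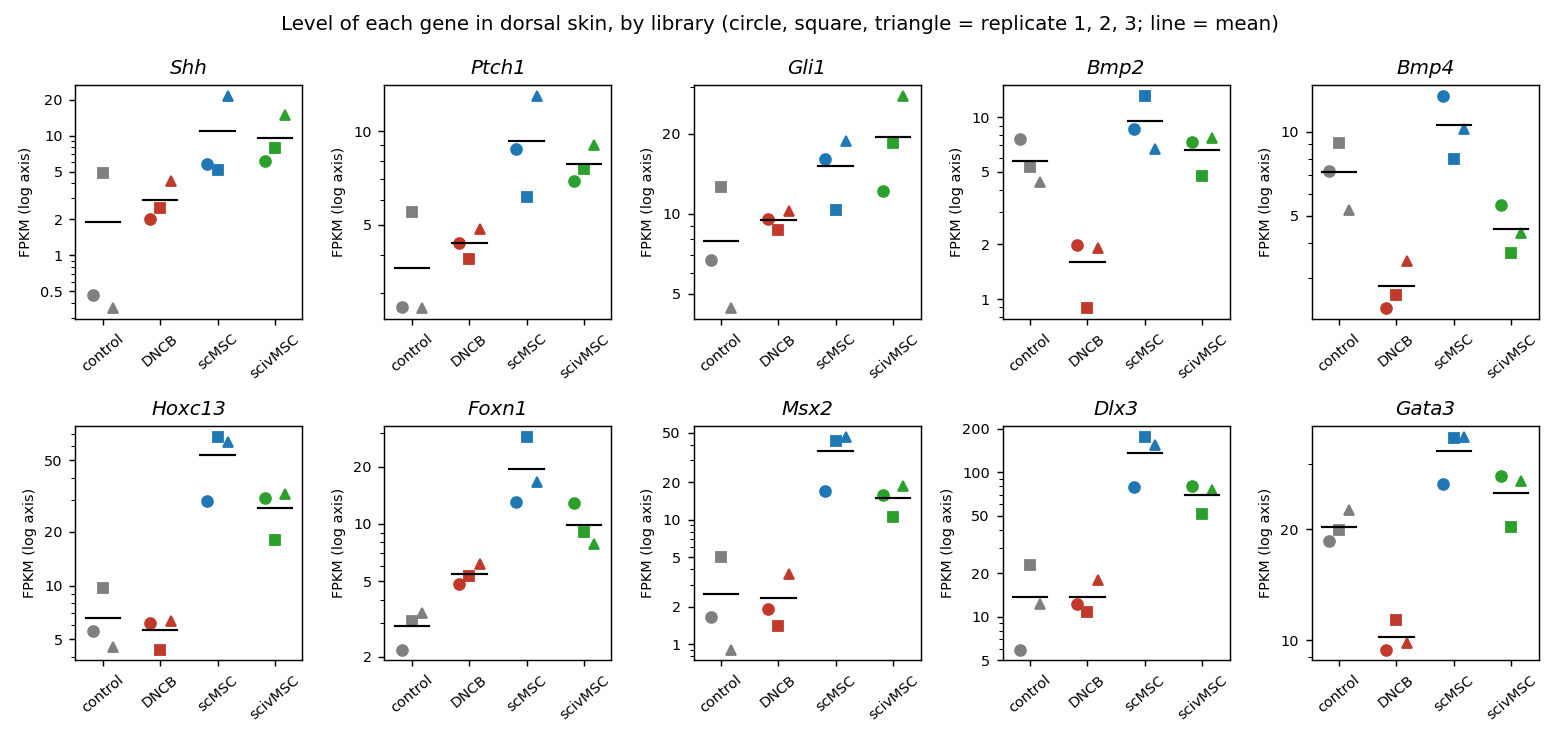
FPKM of each of the 10 genes (log axis) in the 12 dorsal skin libraries, by group, with 1 point per library (circle, square and triangle for replicates 1, 2 and 3) and a line at the mean of 3. Points of scMSC and scivMSC lie above every DNCB point in the 10 panels, and control replicate 2 is the highest control library for Shh, Ptch1, Gli1, Bmp4, Hoxc13, Msx2 and Dlx3.

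**Figure D2:**
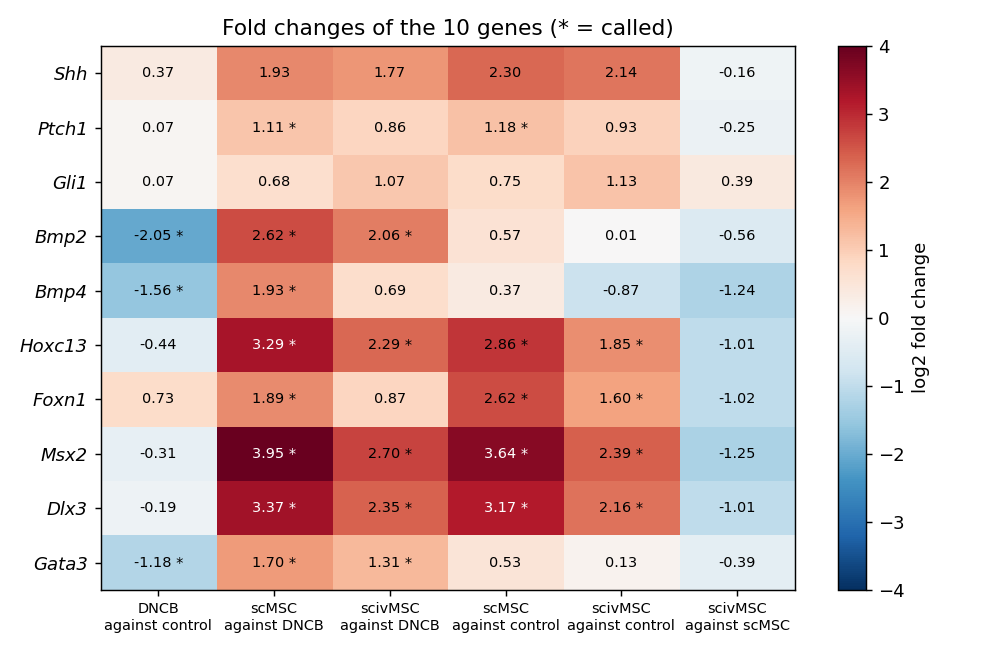
Fitted log2 fold changes of the 10 genes (rows) in the 6 pairwise comparisons (columns), with an asterisk on those called. The column of scivMSC against scMSC holds no asterisk, and the column of DNCB against control holds 3, on Bmp2, Bmp4 and Gata3.

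Shh encodes sonic hedgehog, the secreted ligand made by matrix cells of the anagen bulb. It lies at chr5:28456815-28467256 on the minus strand. Its level in control skin was 0.468, 4.92 and 0.359 FPKM in replicates 1, 2 and 3. DNCB skin had 2.02, 2.51 and 4.16 FPKM, scMSC skin 5.82, 5.15 and 21.8 FPKM, and scivMSC skin 6.12, 7.99 and 14.8 FPKM. Control replicate 2 alone among controls lay in the range of the DNCB libraries or above, while both MSC groups lay above control and DNCB without overlap. No pairwise comparison of Shh passed the test. The log2 fold change was 1.93 ± 0.94 in scMSC against DNCB (adjusted p = 0.232) and 1.77 ± 0.94 in scivMSC against DNCB (adjusted p = 0.301), with 95% intervals from -0.15 to 4.01 and from -0.30 to 3.84. Shh in DNCB against control had a log2 fold change of 0.37 ± 0.92 (adjusted p = 0.816).

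The Shh values against control depended on control replicate 2 and on the tool. Without that library the log2 fold change of Shh was 2.58 in DNCB against control (adjusted p = 0.0295), 4.49 in scMSC against control (adjusted p = 0.00702) and 4.34 in scivMSC against control (adjusted p = 0.0126). With it, the last pair were 2.30 ± 0.96 and 2.14 ± 0.95, at adjusted p = 0.123 and 0.171. With that library kept, limma on log2(FPKM + 0.1) gave 3.01 for Shh in scMSC against control (adjusted p = 0.0269) and 3.06 in scivMSC against control (adjusted p = 0.0295), and both also passed at pseudocounts of 1 and 0.01. Inner root sheath genes, summed, were also higher in that library than in the other controls, as given above, and their part in the Shh value was not tested.

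Ptch1 encodes the receptor that binds hedgehog ligand and is itself induced by the pathway. It is on chr13:63508328-63573460, minus strand. Control skin gave 2.70, 5.49 and 2.68 FPKM, DNCB skin 4.36, 3.87 and 4.83 FPKM, scMSC skin 8.77, 6.15 and 13.03 FPKM, and scivMSC skin 6.91, 7.56 and 9.04 FPKM. Every library of the MSC groups was above every DNCB and control library. Ptch1 rose in scMSC against DNCB by 1.11 ± 0.32 (adjusted p = 0.0449) and in scMSC against control by 1.18 ± 0.32 (adjusted p = 0.0282). In scivMSC the values were 0.86 ± 0.32 against DNCB (adjusted p = 0.131) and 0.93 ± 0.32 against control (adjusted p = 0.0825), and neither passed. The call against DNCB was lost when any of DNCB replicates 1, 2 and 3, scMSC replicates 1 and 3 or scivMSC replicates 1 and 2 was left out, with adjusted p from 0.0592 to 0.159, the highest of them without scMSC replicate 3. Without control replicate 1 or 3 or scMSC replicate 3, Ptch1 was also not called against control (adjusted p = 0.107, 0.0916 and 0.102). Leaving out control replicate 2 instead gave 1.34 in scivMSC against control (adjusted p = 0.016). With all libraries kept, DESeq2 gave 0.89 there (adjusted p = 0.0411), under the threshold on fold. On log2(FPKM + 0.1), limma gave 1.16 (adjusted p = 0.0245). Ptch1 did not pass there in edgeR with the 6 libraries compared fitted alone (adjusted p = 0.15).

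Gli1 encodes the zinc finger transcription factor whose transcription reports hedgehog activity, and lies at chr10:127329882-127341974 on the minus strand. It was at 6.67, 12.6 and 4.39 FPKM in control, 9.59, 8.68 and 10.2 FPKM in DNCB, 16.1, 10.3 and 18.8 FPKM in scMSC and 12.2, 18.4 and 27.9 FPKM in scivMSC. The lowest scMSC library and the highest DNCB library differed by little, and control replicate 2 overlapped both MSC groups. The log2 fold change of Gli1 was 0.68 ± 0.40 in scMSC against DNCB (adjusted p = 0.336) and 1.07 ± 0.41 in scivMSC against DNCB (adjusted p = 0.142). Against control, scivMSC gave 1.13 ± 0.41 (adjusted p = 0.0947), and 1.62 without control replicate 2 (adjusted p = 0.0266). With all libraries kept, DESeq2 gave 1.08 (adjusted p = 0.0407) and limma on log2(FPKM + 0.1) gave 1.35 (adjusted p = 0.033). Gli1 did not pass in edgeR with the 6 libraries compared fitted alone (adjusted p = 0.21).

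Likeness to Shh, Ptch1 and Gli1 was taken as the Pearson correlation of log2(FPKM + 0.1) over the 12 libraries, among 14386 genes that averaged 1 FPKM or more. Among the genes most like Shh were Ptch1 (0.956) and Tada2a (0.95), and among those most like Ptch1 were Shh (0.956) and Whrn (0.947). For Gli1 they included Gm12940 (0.962) and Gm6525 (0.933). Replicate 3 was the highest scMSC and scivMSC library for both Shh and Ptch1, and replicate 2 the highest control library. The points of these correlations are 12 libraries in 4 groups, so that differences between groups and between libraries both enter.

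The Hedgehog list of 17 genes includes Shh, Ptch1 and Gli1. In scMSC against DNCB 3 rose (Ptch1, Kif7 and Hhip) and 1 fell (Gas1), and the median log2 fold change was 0.26 beside 0.016 over all genes. In scivMSC against DNCB 1 fell (Gas1), and in DNCB against control 2 rose (Gli2 and Gas1). Of all genes 8.50%, 5.46% and 14.2% were called in these comparisons, so that the last pair of counts lay near or below the share over all genes. Gli2, the main activator of the pathway, was higher by 1.17 in DNCB than in control (adjusted p = 0.00567) and differed by 0.04 between scMSC and DNCB (adjusted p = 0.962). Gas1, a membrane coreceptor, rose by 1.09 in DNCB against control (adjusted p = 0.0143) and fell by 1.17 in scMSC against DNCB (adjusted p = 0.018). Kif7, a kinesin of the primary cilium, rose by 1.02 in scMSC against DNCB (adjusted p = 0.0258), and Hhip, a decoy receptor, rose by 3.46 (adjusted p = 0.0248) from levels of at most 0.198 FPKM in DNCB. Smo, the signal transducer that PTCH1 holds inactive, was at 13.9 to 14.4 FPKM in DNCB and at 11.5 to 13.8 FPKM in scMSC, with a log2 fold change of -0.12 (adjusted p = 0.566). Sufu, the inhibitor of GLI factors, differed by -0.04 in the same comparison (adjusted p = 0.936). The count of 4 in scMSC against DNCB fell to 0 without DNCB replicate 1 or scMSC replicate 3, to 1 without DNCB replicate 2 or 3 and to 2 without scMSC replicate 2. The count of 1 in scivMSC against DNCB was 0 or 2 when most single libraries were left out, and the count in DNCB against control was 0 without control replicate 3.

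Marker genes of the dermal papilla, a target of hedgehog ligand, were counted beside these values. Of 11 genes, 4 rose (Corin, Wif1, Hhip and Prdm1) and 1 fell (Crabp1) in scMSC against DNCB, and in scivMSC against DNCB 1 rose (Corin) and 1 fell (Crabp1). Of all genes 8.50% and 5.46% were called in these comparisons. Hhip is also in the Hedgehog list, and Prdm1 in the list of other follicle transcription factors below, so the counts are not independent. Their summed level ran from 28.7 to 32.2 FPKM in control, 94.4 to 108 in DNCB, 43.6 to 77.2 in scMSC and 39.0 to 53.4 in scivMSC, and none was at 0 in all libraries of a group. The DNCB sum was mostly Crabp1, at 68.5 to 90.8 FPKM in DNCB and at 7.48 to 11.7 FPKM in control. Of 12 proliferation genes, 12 rose in DNCB against control, 0 rose and 1 fell in scMSC against DNCB, and 0 were called in scivMSC against DNCB. The part of these markers in the Hedgehog values was not tested.

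Bmp2 encodes a BMP ligand made in the precortex of the follicle and in the epidermis, and lies at chr2:133552159-133562885 on the plus strand. Control skin gave 7.55, 5.29 and 4.42 FPKM and DNCB skin 1.98, 0.887 and 1.91 FPKM. In scMSC skin Bmp2 was at 8.65, 13.2 and 6.66 FPKM, and in scivMSC skin at 7.26, 4.74 and 7.69 FPKM. The DNCB libraries were below all 9 others, and the other 3 groups overlapped each other. Bmp2 fell by 2.05 ± 0.39 in DNCB against control (adjusted p = 0.00382) and rose by 2.62 ± 0.40 in scMSC against DNCB (adjusted p = 0.00291) and by 2.06 ± 0.39 in scivMSC against DNCB (adjusted p = 0.0123). Against control, scMSC differed by 0.57 ± 0.37 (adjusted p = 0.329) and scivMSC by 0.01 ± 0.37 (adjusted p = 0.987), with 95% intervals from -0.25 to 1.39 and from -0.81 to 0.84. The 3 calls of Bmp2 held when any of the 12 libraries was left out, with adjusted p of at most 0.0142, 0.0134 and 0.0447. Bmp2 is also in a list of genes low in DNCB that the study drew from these samples, which is not independent evidence of its direction.

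Bmp4 encodes a BMP ligand of the dermal papilla and hair matrix, and lies at chr14:46383520-46390669 on the minus strand. Its levels were 7.24, 9.12 and 5.24 FPKM in control, 2.33, 2.60 and 3.45 FPKM in DNCB, 13.5, 7.96 and 10.2 FPKM in scMSC and 5.45, 3.67 and 4.35 FPKM in scivMSC. DNCB was again lowest without overlap, and here the scivMSC libraries were all below the scMSC libraries. Bmp4 fell by 1.56 ± 0.27 in DNCB against control (adjusted p = 0.00258) and rose by 1.93 ± 0.28 in scMSC against DNCB (adjusted p = 0.00239). In scivMSC against DNCB the log2 fold change was 0.69 ± 0.27 (adjusted p = 0.15), and in scivMSC against control -0.87 ± 0.27 (adjusted p = 0.0568). Without control replicate 3 the last value was -1.12 (adjusted p = 0.0214), and DESeq2 gave -0.91 (adjusted p = 0.0112).

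Of the 28 genes of the BMP list, 4 fell in DNCB against control (Bmp2, Bmp4, Bmp6 and Id4) and 0 rose. In scMSC against DNCB 11 rose and 1 fell, beside a median of 0.46 over the list and 0.016 over all genes. For scivMSC against DNCB 3 rose (Bambi, Bmp2 and Id4) and 2 fell (the receptor Bmpr1b and the antagonist Grem1). Of all genes 14.2%, 8.50% and 5.46% were called in these comparisons, so that the count in DNCB against control lay near the share over all genes. Among the ligands, Bmp6 fell by 1.03 in DNCB against control (adjusted p = 0.012) and rose by 1.22 in scMSC against DNCB (adjusted p = 0.00999), and Bmp8a rose by 4.04 in scMSC against DNCB (adjusted p = 0.021), from 0.181 to 0.403 FPKM in DNCB to 1.58 to 5.76 FPKM. Bmp7 was at 14.1 to 14.6 FPKM in DNCB and 18.3 to 26.1 FPKM in scMSC, and its difference of 0.62 on the log2 scale (adjusted p = 0.0299) was under the threshold on fold. The type I receptor Bmpr1a had 19.4 to 20.95 FPKM in DNCB and 24.2 to 31.4 FPKM in scMSC, and its log2 fold change of 0.51 (adjusted p = 0.0312) was under that threshold as well.

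Several genes that BMP signalling induces, some of which feed back on it, rose in scMSC against DNCB. The inhibitory SMADs gave 2.12 for Smad6 (adjusted p = 0.00476) and 1.50 for Smad7 (adjusted p = 0.024). The pseudoreceptor Bambi, which blocks receptor signalling, gave 3.45 (adjusted p = 0.0031). Of the inhibitors of DNA binding, Id4 rose by 2.03 (adjusted p = 0.00117), Id3 by 1.27 (adjusted p = 0.0147) and Id2 by 1.08 (adjusted p = 0.00941), while Id1 differed by -0.24 (adjusted p = 0.555). Of these genes, Bambi and Id4 also rose in scivMSC against DNCB, where Smad6, Smad7, Id1, Id2 and Id3 were not called. Id4 was at 8.87, 12.1 and 13.4 FPKM in control, 5.60, 4.42 and 5.02 FPKM in DNCB, 21.8, 20.8 and 17.8 FPKM in scMSC and 26.4, 16.4 and 17.5 FPKM in scivMSC, so that DNCB was lowest without overlap. Of the secreted BMP antagonists, Grem1 fell by 1.96 in scMSC against DNCB (adjusted p = 0.0154) and by 1.68 in scivMSC against DNCB (adjusted p = 0.0403). Noggin (Nog) differed by 0.15 in scMSC against DNCB (adjusted p = 0.897), follistatin (Fst) by -0.67 (adjusted p = 0.0765) and Sostdc1 by -0.03 (adjusted p = 0.956). The count of 12 in scMSC against DNCB was 7 without DNCB replicate 2 or scMSC replicate 3. The count of 5 in scivMSC against DNCB was 2 without any 1 of the DNCB libraries, scivMSC replicate 1 or scivMSC replicate 3, and 3 without control replicate 2 or scivMSC replicate 2.

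**Figure D3:**
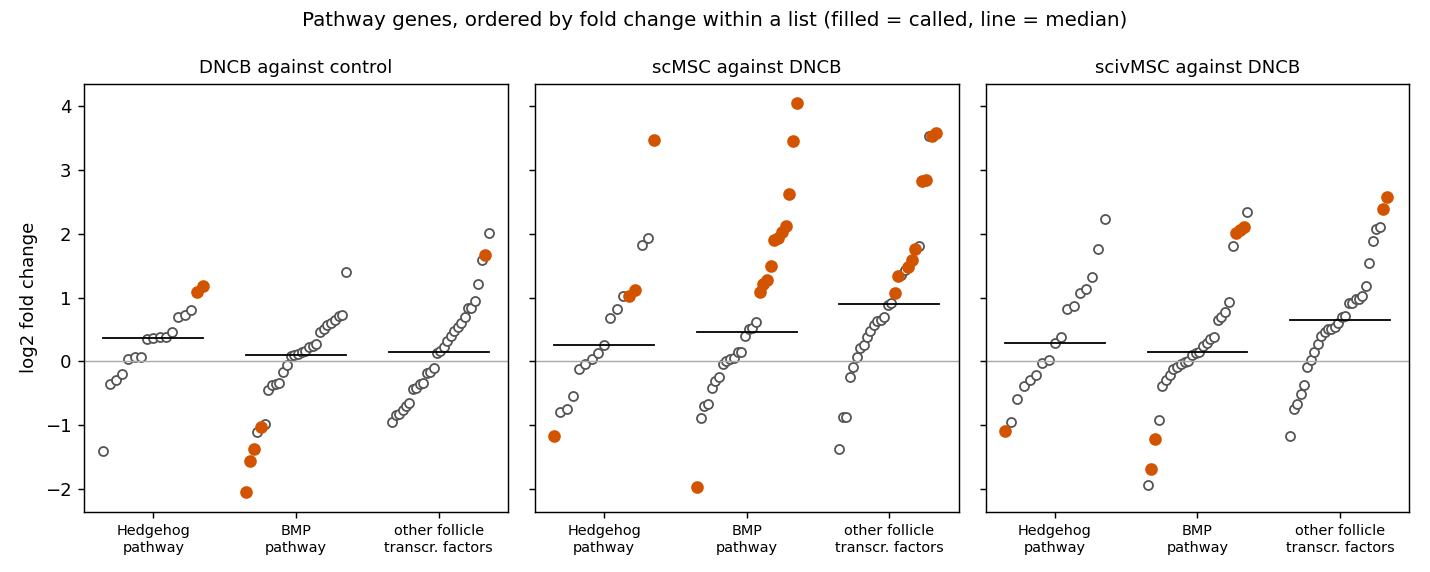
Log2 fold change of each gene of the Hedgehog, BMP and other follicle transcription factor lists (open circles, or filled where called) in 3 comparisons, ordered by value within a list, with a line at the list's median. Filled points are mostly above 0 in scMSC against DNCB, where 3, 11 and 10 genes of the lists rose, and Hoxc12, listed at 0 in DNCB, is left out of the points.

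Sebaceous gland genes were low in DNCB, as were Bmp2, Bmp4 and Gata3. Of 9 sebaceous genes, 8 fell in DNCB against control, and 5 rose in scMSC against DNCB and in scivMSC against DNCB. Bmp4 was not called in scivMSC against DNCB. Their summed level ran from 695 to 871 FPKM in control, 181 to 202 in DNCB, 432 to 694 in scMSC and 456 to 945 in scivMSC, with none at 0. Skeletal muscle genes, 5 of 6 lower in DNCB than in control, ran from 13580 to 19700 FPKM in control, 3615 to 5393 in DNCB, 3759 to 8013 in scMSC and 4143 to 9569 in scivMSC. Fibroblast genes, 4 of 6 higher in DNCB than in control, ran from 232 to 346, 1916 to 2233, 245 to 750 and 124 to 946 FPKM in the same order. Neutrophil genes, 8 of 8 higher in DNCB than in control, ran from 121 to 209, 2504 to 3453, 16.5 to 66.2 and 35.6 to 180 FPKM, and Ly6g, a defining neutrophil gene, was at 0 in all libraries of the control, scMSC and scivMSC groups. The part of these cell types in the BMP values was not tested.

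Hoxc13 encodes a homeobox factor of the hair matrix and cortex that acts on shaft keratin genes, and lies at chr15:102921103-102928814 on the plus strand. It was at 5.54, 9.74 and 4.56 FPKM in control and 6.14, 4.38 and 6.33 FPKM in DNCB. The scMSC libraries gave 29.6, 67.8 and 63.4 FPKM and the scivMSC libraries 30.7, 17.9 and 32.5 FPKM. Control and DNCB overlapped, and the 6 MSC libraries were above the 6 others. Hoxc13 rose by 3.29 ± 0.43 in scMSC against DNCB (adjusted p = 0.00199) and by 2.29 ± 0.41 in scivMSC against DNCB (adjusted p = 0.0101). Against control it rose by 2.86 ± 0.42 in scMSC (adjusted p = 0.00181) and by 1.85 ± 0.40 in scivMSC (adjusted p = 0.0152). The last call was lost without control replicate 1 (1.70, adjusted p = 0.0646).

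Msx2 encodes a homeobox factor of the matrix that is needed to keep the shaft growing, at chr13:53466884-53473074 on the minus strand. Levels were 1.65, 4.99 and 0.905 FPKM in control, 1.94, 1.41 and 3.70 FPKM in DNCB, 17.0, 42.8 and 46.4 FPKM in scMSC and 15.8, 10.5 and 18.8 FPKM in scivMSC. Replicate 1 of scMSC lay within the scivMSC range, and the other scMSC libraries were above it. Msx2 had the highest fold change of the 10 genes in the comparisons of MSC groups with DNCB, at 3.95 ± 0.69 in scMSC (adjusted p = 0.00501) and 2.70 ± 0.66 in scivMSC (adjusted p = 0.0311). It rose by 3.64 ± 0.68 in scMSC against control (adjusted p = 0.00524) and by 2.39 ± 0.65 in scivMSC against control (adjusted p = 0.035). Both scivMSC calls were sensitive to single libraries. Against DNCB the adjusted p was 0.0539 to 0.116 when any DNCB library, scivMSC replicate 1 or scivMSC replicate 3 was left out, and against control 0.0513 to 0.128 without control replicate 1 or 3, DNCB replicate 1 or scivMSC replicate 1, 2 or 3.

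Dlx3 encodes a distal-less homeobox factor of matrix, shaft and inner root sheath, at chr11:95120119-95125296 on the plus strand, and it reached the highest FPKM of the 10 genes. Control skin gave 5.90, 22.9 and 12.2 FPKM, DNCB skin 12.2, 10.8 and 18.0 FPKM, scMSC skin 79.0, 176 and 156 FPKM and scivMSC skin 79.8, 51.6 and 76.0 FPKM. No library of the MSC groups was below 51.6 FPKM, and no other library was above 22.9 FPKM. Dlx3 rose by 3.37 ± 0.50 in scMSC against DNCB (adjusted p = 0.00274), 2.35 ± 0.48 in scivMSC against DNCB (adjusted p = 0.017), 3.17 ± 0.50 in scMSC against control (adjusted p = 0.00243) and 2.16 ± 0.48 in scivMSC against control (adjusted p = 0.0161). The scivMSC call against DNCB was lost when DNCB replicate 1, DNCB replicate 2 or scivMSC replicate 1 was left out (adjusted p = 0.0704, 0.0717 and 0.0562).

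Foxn1 encodes the forkhead factor missing in nude mice, which drives terminal differentiation of the shaft, at chr11:78357577-78386558 on the minus strand. It was at 2.18, 3.08 and 3.40 FPKM in control, 4.81, 5.30 and 6.19 FPKM in DNCB, 13.1, 28.8 and 16.7 FPKM in scMSC and 12.9, 9.03 and 7.88 FPKM in scivMSC. The 4 groups did not overlap and stood in the order control, DNCB, scivMSC, scMSC. Foxn1 rose by 1.89 ± 0.31 in scMSC against DNCB (adjusted p = 0.00397), by 2.62 ± 0.32 in scMSC against control (adjusted p = 0.00115) and by 1.60 ± 0.31 in scivMSC against control (adjusted p = 0.00936). Neighbours in that order did not pass the test. The log2 fold change was 0.73 ± 0.30 in DNCB against control (adjusted p = 0.104), 0.87 ± 0.30 in scivMSC against DNCB (adjusted p = 0.109) and -1.02 ± 0.30 in scivMSC against scMSC (adjusted p = 0.565). The DNCB value against control was 0.69 without scMSC replicate 2 (adjusted p = 0.0421), and the scivMSC value against DNCB was 0.87 without the same library (adjusted p = 0.0381), both under the threshold on fold.

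Hoxc13, Msx2 and Dlx3 had nearly the same pattern over the 12 libraries, with pairwise correlations of 0.97 to 0.99, and Foxn1 correlated with them at 0.87 to 0.92. Shh, Ptch1 and Gli1 correlated with each other at 0.90 to 0.96 and with Hoxc13 at 0.68 to 0.85. Bmp2 correlated with Gata3 at 0.88 and with Shh at 0.25. The genes most like Hoxc13 were Unc5b (0.986), Msx2 (0.986) and Gm49918 (0.984), those most like Msx2 were Ccdc155 (0.99), Lef1 (0.988) and Gm49918 (0.987), and those most like Dlx3 were Cryba4 (0.985), Gm49918 (0.982) and Lef1 (0.981). Foxn1 was closest to Ctns (0.994), Ephb1 (0.993) and Tbc1d30 (0.991). For Bmp2 the closest genes were Sntb1 (0.985), Tlcd4 (0.967) and Hsd17b14 (0.966), for Bmp4 Txnrd1 (0.937), Hipk3 (0.902) and Dbndd2 (0.883), and for Gata3 Gpr157 (0.964), Phldb3 (0.959) and Hspb1 (0.959). These are descriptions over 12 libraries and 4 groups, and no test was made of them.

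**Figure D4:**
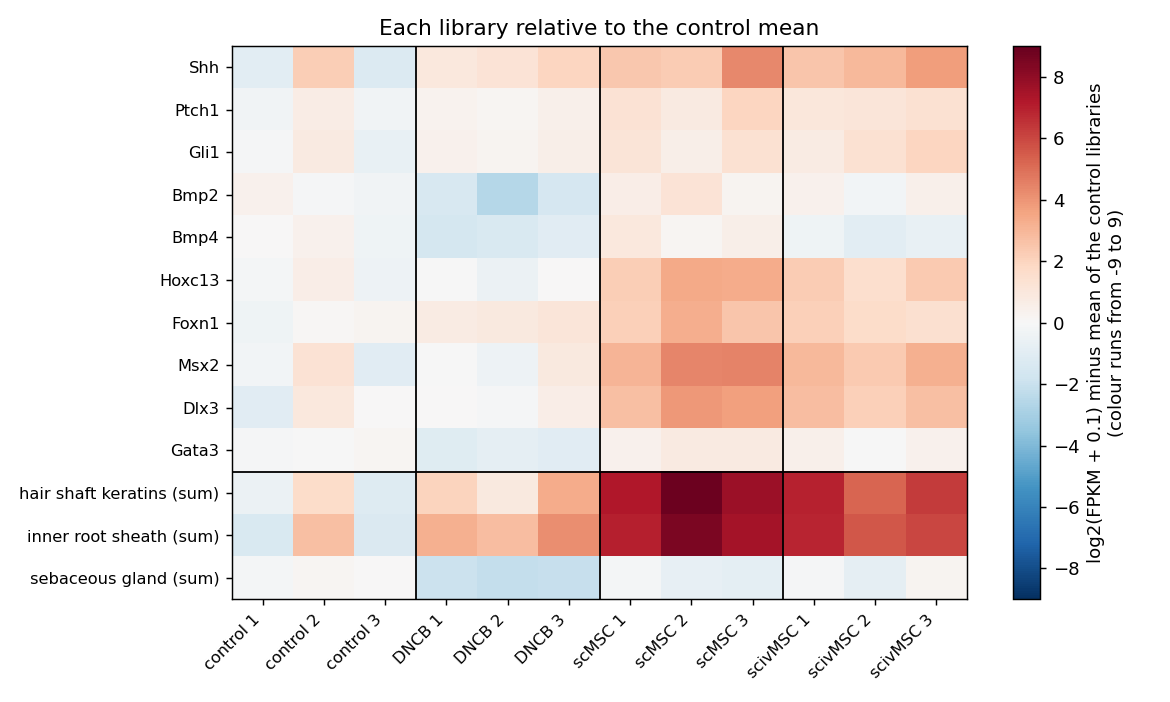
Level of each of the 10 genes, and of 3 summed marker lists, in each library as log2(FPKM + 0.1) minus the mean of the control libraries. Bmp2, Bmp4, Gata3 and the sebaceous sum are blue in the 3 DNCB libraries, Hoxc13, Foxn1, Msx2 and Dlx3 are red in the 6 MSC libraries, and control replicate 2 is red for Shh and Msx2 and for the hair shaft and inner root sheath sums.

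Hair shaft and inner root sheath genes had median log2 fold changes of 5.76 and 4.59 in scMSC against DNCB, where Hoxc13, Msx2, Dlx3 and Foxn1 rose. In DNCB against control the medians of the same lists were 2.94 and 2.08, while Hoxc13, Msx2 and Dlx3 had fold changes of -0.44, -0.31 and -0.19 and were not called. Of 12 hair shaft keratins tested, 4 rose in DNCB against control, 12 rose in scMSC against DNCB and 9 rose in scivMSC against DNCB. Their summed level was 6.45, 30.1 and 4.22 FPKM in control, 37.9, 17.5 and 94.9 FPKM in DNCB, 1381, 4325 and 1993 FPKM in scMSC and 1138, 363 and 743 FPKM in scivMSC. Of 9 inner root sheath genes, 2 rose in DNCB against control, 4 in scMSC against DNCB and 2 in scivMSC against DNCB, and their sum was 20.2 to 343 FPKM in control, 373 to 971 in DNCB, 6819 to 19310 in scMSC and 2571 to 6195 in scivMSC. In both sums DNCB replicate 3, scMSC replicate 2 and scivMSC replicate 1 were the highest of their groups. Of these, DNCB replicate 3 was the highest DNCB library for Hoxc13, Foxn1, Msx2 and Dlx3, and scMSC replicate 2 the highest scMSC library for Hoxc13, Foxn1 and Dlx3 but not for Msx2. In scivMSC, replicate 1 was the highest for Foxn1 and Dlx3, and replicate 3 for Hoxc13 and Msx2. No gene of either list was at 0 in all libraries of a group. Hair keratins are close paralogs whose reads can be shared, so that values of single keratins are uncertain. Of 8 melanocyte genes, 3 rose in scMSC against DNCB, with sums of 82.8 to 103 FPKM in DNCB and 141 to 347 in scMSC. The part of the number of shaft-forming or pigment cells in the transcription factor values was not tested.

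**Figure D5:**
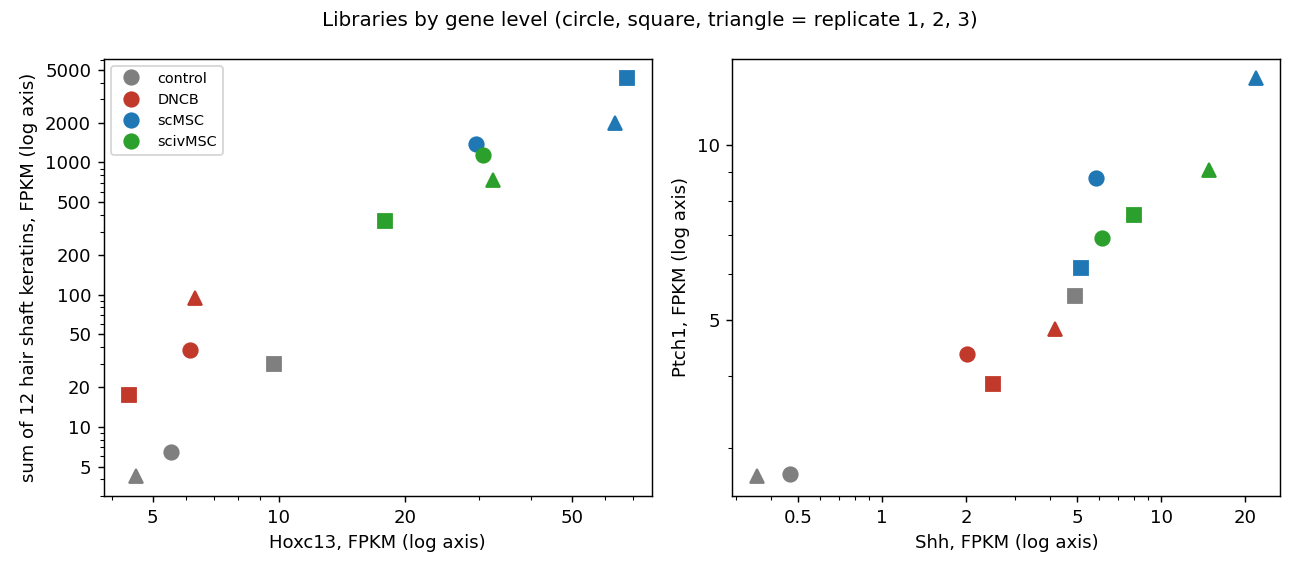
Left, Hoxc13 against the sum of 12 hair shaft keratins, and right, Shh against Ptch1, in FPKM on log axes, with 1 point per library and colour by group. DNCB libraries have more shaft keratin than control replicates 1 and 3 at a similar Hoxc13 level, and control replicate 2 lies between the DNCB and the MSC libraries in the right panel.

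Other transcription factors of the follicle were taken as a list of 31, of which 30 were tested. In scMSC against DNCB 10 rose and 0 fell, with a median of 0.90, and in scivMSC against DNCB 3 rose and 0 fell, with a median of 0.65. In DNCB against control 1 rose (Runx1) and 1 fell (Hoxc12). Beside these counts, 8.50%, 5.46% and 14.2% of all genes were called, so that the count in DNCB against control lay below the share over all genes. Lef1, the partner of beta-catenin in matrix and precortex, rose by 3.53 in scMSC against DNCB (adjusted p = 0.00406), from 0.505, 0.495 and 1.11 FPKM in DNCB to 4.03, 7.96 and 11.9 FPKM in scMSC, and was at 3.89, 2.91 and 5.50 FPKM in scivMSC. In the same comparison Elf5, an ETS factor of epithelia, rose by 3.57 (adjusted p = 0.00461), Msx1, the paralog of Msx2, by 2.84 (adjusted p = 0.017) and Dlx2, a paralog of Dlx3, by 2.82 (adjusted p = 0.0106). Hoxc12, a neighbour of Hoxc13 in the HoxC cluster, was listed at 0 in the 3 DNCB libraries and at 0.312 to 0.742 FPKM in control, 0.340 to 1.04 FPKM in scMSC and 0.237 to 0.793 FPKM in scivMSC. Sox9 and Lhx2, factors of follicle progenitors, differed by 0.63 (adjusted p = 0.126) and 0.91 (adjusted p = 0.0389, under the threshold on fold). The count of 3 in scivMSC against DNCB was 1 when DNCB replicate 1 or 2 was left out, 1 when scivMSC replicate 1 or 3 was, and 5 without scMSC replicate 2. The count of 2 in DNCB against control was 4 without control replicate 2 and 5 with library size alone. With limma it was 5, 4 and 6 at pseudocounts of 0.1, 1 and 0.01. Its place below the share over all genes therefore depended on the tool.

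Gata3 encodes a zinc finger factor that specifies the inner root sheath and is also made in the epidermis and in type 2 lymphocytes. It lies at chr2:9857078-9890034 on the minus strand. Control skin gave 18.6, 19.9 and 22.6 FPKM, DNCB skin 9.44, 11.3 and 9.81 FPKM, scMSC skin 26.6, 35.4 and 35.6 FPKM and scivMSC skin 27.9, 20.3 and 27.1 FPKM. The DNCB libraries were lowest without overlap, and the scMSC libraries were above all control libraries. Gata3 fell by 1.18 ± 0.18 in DNCB against control (adjusted p = 0.00137) and rose by 1.70 ± 0.18 in scMSC against DNCB (adjusted p = 0.00132) and by 1.31 ± 0.18 in scivMSC against DNCB (adjusted p = 0.00415). In scMSC against control it differed by 0.53 ± 0.18 (adjusted p = 0.0598) and in scivMSC against control by 0.13 ± 0.18 (adjusted p = 0.684). The former had an adjusted p of 0.0204 without scMSC replicate 1 and 0.0384 without scivMSC replicate 2, with fold changes of 0.68 and 0.53. Its direction in DNCB was opposite to that of Krt26 and Tgm3, the only 2 of 9 inner root sheath genes called there, which rose.

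Markers of lymphocytes were counted beside Gata3. Of 14 genes of T cells and type 2 innate lymphoid cells, 12 were tested, of which 3 rose (Cd4, Trbc2 and Il1rl1) and 2 fell (Ccr4 and Rora) in DNCB against control, and 1 rose (Ccr4) and 2 fell (Cd4 and Icos) in scMSC against DNCB. Their summed level ran from 25.9 to 39.7 FPKM in control, 46.8 to 54.6 in DNCB, 23.0 to 42.9 in scMSC and 31.7 to 50.2 in scivMSC, and Cd3e, a defining T cell gene, was between 0.0584 and 0.683 FPKM in every library. Ptgdr2, a defining gene of type 2 lymphocytes, was at 0 in the 3 scivMSC libraries. Interfollicular keratinocyte genes had 2 higher (Krt5 and Krt14) and 2 lower (Krt2 and Lor) of 8 in DNCB against control. The part of these cells in the Gata3 level was not tested.

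Relative to control skin, 5 of the 10 genes rose in scMSC (Ptch1, Hoxc13, Foxn1, Msx2 and Dlx3), where 9.32% of all genes were called (5.12% higher and 4.20% lower), and 4 rose in scivMSC (Hoxc13, Foxn1, Msx2 and Dlx3), where 6.85% were called (3.50% higher and 3.35% lower). In 7 of the 10 genes the scMSC and control libraries did not overlap, and in 6 the scivMSC and control libraries did not, beside 37.6% and 34.5% of all genes. Without control replicate 2 the scivMSC count was 7, with Shh, Ptch1 and Gli1 added, and without control replicate 1 it was 2. Bmp2, Bmp4 and Gata3, which fell in DNCB, were not called in either MSC group against control. Hoxc13, Msx2 and Dlx3 had log2 fold changes of -0.44 ± 0.39, -0.31 ± 0.62 and -0.19 ± 0.46 in DNCB against control, at adjusted p = 0.466, 0.765 and 0.807, and without control replicate 2 those of Msx2 and Dlx3 turned to 0.65 and 0.40. The genes without overlap numbered 4 between DNCB and control (Bmp2, Bmp4, Gata3 and Foxn1), where 47.7% of all genes had none.

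The 2 injection routes were compared directly. In scivMSC against scMSC, 0 of the 10 genes were called, and 0.00457% of all genes were. Of the 10, 4 had an unadjusted p under 0.05, Bmp4, Hoxc13, Foxn1 and Gata3, each lower in scivMSC, where 7.49% of all genes had one. The log2 fold change of Bmp4 was -1.24 ± 0.27, with a 95% interval from -1.83 to -0.64 and an adjusted p of 0.565, and DESeq2 called it at -1.25 (adjusted p = 0.0079), the only 1 of the 10 genes that DESeq2 called here. Foxn1 gave -1.02 ± 0.30, Hoxc13 -1.01 ± 0.39, Dlx3 -1.01 ± 0.46 and Msx2 -1.25 ± 0.62, with adjusted p from 0.565 to 0.699. For Shh, Ptch1 and Gli1 the values were -0.16 ± 0.91, -0.25 ± 0.32 and 0.39 ± 0.40, with 95% intervals from -2.16 to 1.84, from -0.95 to 0.45 and from -0.50 to 1.27. Bmp4 and Foxn1 did not overlap between the routes, where 10.8% of all genes did not. The median of the 10 genes was -0.78, beside 0.008 over all genes.

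Several of the 10 genes share their place with another annotated gene, and the library strandedness was not given in the sources used here. Shh, Gli1, Bmp4 and Gata3 have transcripts on the other strand within their bounds, among them Arhgap9 at Gli1, and Ptch1 and Gata3 overlap A930032L01Rik and 9230102O04Rik on their own strand. Reads of these partners could not be told apart from those of the named gene.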

How the data were processed

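RNA of dorsal skin was analysed in 12 libraries, 3 in each of 4 groups taken from the labels. The authors deposited FPKM, which are scaled by gene length and by depth, beside estimated counts (expected counts) in whole numbers, not normalized between libraries. Per the submitters' processing notes, HISAT2 2.0, StringTie 1.3.0, Bowtie 0.12.2 and the build mm8 are listed, while the gene positions in the file are those of GRCm38. Low counts were often multiples of 4, so 1 fragment was taken as about 4 estimated counts, and counts divided by 4 were an alternative.

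Genes averaging 0.1 FPKM or more entered edgeR 4.0.16 in R 4.3.3, by the quasi-likelihood F test with TMM normalization (factors 0.887 to 1.06) and 1 model of the 4 groups. The common biological coefficient of variation was 0.42. Standard errors were derived from the F statistic. The study's fold threshold of 2 was kept, with an adjusted p under 0.05. The steps were tested on simulated data. Alternatives used DESeq2 1.42.0, limma 3.58.1 on log2(FPKM + pseudocount of 0.1, 1 or 0.01), other filters, library size alone, each comparison's libraries alone, a replicate block and each library left out. Leaving out control replicate 2 together with scivMSC replicate 2 was chosen after seeing the data.

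The 10 genes and the gene lists were chosen with earlier results of these data known. Apart from the 10 genes, those named were up to 4 of each pathway list that averaged 1 FPKM or more and had the largest fold change among those called in DNCB against control or scMSC against DNCB, receptors and inhibitors by role, and the 3 genes most like each of the 10, except 1 gene that is not reported here. Hhip, Bmp6, Bmp7, Smad7, Hoxc12, Id1, Id2, Id3, Sox9, Lhx2, Tyrp1 and the genes named in small counts were named for their role or count, with their values known. Promoters came from RefSeq (GRCm38.p6), and annotation from GENCODE M21, which holds 36287 of the 36400 gene identifiers.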

Additional observations from a re-analysis of the deposited data

How the results depend on the processing

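Of 1380 fold changes of the 10 genes under alternatives, 1269 kept their direction and their side of an adjusted p of 0.05, 45 passed it newly, 35 no longer passed it and 31 changed direction. The fold threshold is not part of these counts, and some of the 45 lay under it, such as Gata3 in scMSC against control (0.51 to 0.68). None of those that changed direction was past that p in the analysis reported. Of 166 counts of called genes among the 10, 157 stayed within 1.5 times, and of 432 counts over the pathway lists 352 did. For scivMSC against control the count of 4 became 7 with limma at a pseudocount of 0.1 or 0.01 and 2 with the 6 libraries compared fitted alone, and for scivMSC against scMSC the count of 0 became 1 with DESeq2. With each library left out in turn, counts ran from 3 to 4 for DNCB against control, 7 to 8 for scMSC against DNCB, 3 to 5 for scivMSC against DNCB (3 without DNCB replicate 1 or 2 or scivMSC replicate 1), 4 to 6 for scMSC against control, 2 to 7 for scivMSC against control (2 without control replicate 1, 7 without control replicate 2), 0 to 0 for scivMSC against scMSC and 7 to 10 for any difference among the 4 groups. With control replicate 2 and scivMSC replicate 2 both left out, they were 4, 8, 5, 6, 5, 0 and 9, and Foxn1 in scivMSC against control was not called (1.71, adjusted p = 0.0611). The cause of these changes was not tested.

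In DNCB against control, the log2 fold change with 1 library left out ran from -0.16 to 2.58 for Shh, -0.17 to 0.49 for Ptch1, -0.28 to 0.56 for Gli1, -0.79 to 0.65 for Msx2 and -0.59 to 0.4 for Dlx3, and leaving out control replicate 2 with scivMSC replicate 2 gave 0.65 and 0.4 for the last pair. With limma at pseudocounts of 0.1, 1 and 0.01, Msx2 was 0.13, 0.05 and 0.15, and Dlx3 0.17, 0.15 and 0.17. In scivMSC against scMSC, Shh was 0.05, 0.03 and 0.05 with limma at the same pseudocounts and -0.64 to 0.81 with 1 library left out, and Ptch1 was -0.43 to 0.06, above 0 without scMSC replicate 3. Bmp2 in scivMSC against control was -0.03 with DESeq2, -0.02 with no filter, -0.0078 with a mean of at least 1 FPKM and -0.22 to 0.23 with 1 library left out.

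The labels do not say what the replicate numbers mean, and no pairing of libraries by number was visible in the values. With 3 libraries in each group, the check cannot show that there was no pairing. Over 18 pairs of libraries with the same number, deviations from the group means correlated at -0.21 to 0.149, 1 pair was over 0.1, and 2 of 12 libraries correlated best with their own number. With the replicate number as a block, the counts were 3, 7, 4, 4, 3 and 0 in the 6 comparisons, in the order above, and 7 for any difference.

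The smallest count behind a value of the 10 genes was 72 estimated counts, about 18 fragments, for Shh in control replicate 3, so low Shh levels are the least precise. Each group holds 3 libraries.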

Other observations

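Of 8 melanocyte genes, 4 rose in DNCB against control (Dct, Pmel, Tyr and Tyrp1), 7 in scMSC against control and 6 in scivMSC against control. Against DNCB, 3 rose in scMSC (Mitf, Mlana and Tyrp1) and 1 in scivMSC (Tyrp1). Tyrp1, a melanin enzyme, was at 3.66, 4.68 and 3.13 FPKM in control, 16.8, 14.7 and 21.3 FPKM in DNCB, 38.6, 33.0 and 66.1 FPKM in scMSC and 37.8, 45.3 and 30.4 FPKM in scivMSC, without overlap between control, DNCB and the MSC groups. BALB/c mice are albino, and the files give RNA, not pigment. Replicate 3 of scMSC had the highest melanocyte sum (347 FPKM) and the highest Shh and Ptch1 of its group.

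Of 8 genes of the bulge and hair germ, 1 rose (Cdh3) and 2 fell (Krt15 and Fgf18) in DNCB against control. In each MSC group, 0 were called against DNCB, while 1 rose (Cdh3) and 1 fell (Fgf18) against control. Of all genes 14.2% were called in DNCB against control. Against DNCB, 8.50% were called in scMSC and 5.46% in scivMSC, and against control 9.32% and 6.85%. At such shares, 0 of 8 genes does not show that these genes were unchanged. Fgf18, a growth factor of resting follicles, was at 8.33, 5.55 and 5.63 FPKM in control, 1.83, 1.38 and 1.58 FPKM in DNCB, 2.88, 1.17 and 1.58 FPKM in scMSC and 2.37, 1.70 and 4.00 FPKM in scivMSC. It fell by 2.21 in DNCB against control (adjusted p = 0.00356), 1.97 in scMSC against control (adjusted p = 0.00832) and 1.44 in scivMSC against control (adjusted p = 0.0393). Bmp2 and Bmp4 were lower than in control in DNCB and not called in the MSC groups. Fgf18 was chosen after its values were seen.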
